A study of Mus musculus with 27 samples.

Results

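The 10 Toll-like receptor genes of the mouse that were chosen by gene symbol (Tlr1, Tlr2, Tlr3, Tlr4, Tlr5, Tlr6, Tlr7, Tlr8, Tlr9 and Tlr13) were followed through 27 RNA-seq libraries of macrophages grown from bone marrow. They were 10 of 29872 genes in the count table, and all 10 were among the 14589 genes with enough counts to be tested. Cells came from male mice of 8 to 10 weeks, were differentiated for 5 days with L-cell conditioned medium, and then received vehicle or, for 24 h, interleukin 4 (IL4, 10 ng/ml), corticosterone (500 nM) or dexamethasone (100 nM). IL4 is a type 2 cytokine that drives alternative activation. Corticosterone is the glucocorticoid hormone that mice make, and dexamethasone is its synthetic counterpart used as a drug. The wild-type libraries are titled BL6, while their genotype label gives C57BL/6 with LysM-Cre+/+ and GRIP1wt/wt. The knockout libraries carry LysM-Cre+/+ with GRIP1fl/fl, in which Cre made from the lysozyme locus of myeloid cells acts on the floxed gene of GRIP1 (Ncoa2), a coregulator of the glucocorticoid receptor. Wild type had 3 libraries in each of its 4 groups. Knockout had 4 libraries with vehicle, corticosterone and dexamethasone and 3 with IL4 (numbered 1, 2 and 4).

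Toll-like receptors recognise conserved molecules of microbes and start signalling through adaptors such as MyD88 and TRIF, which leads to NF-kappaB and interferon regulatory factors. One set works at the cell surface: TLR2 pairs with TLR1 or TLR6 to bind bacterial lipopeptides, TLR4 binds lipopolysaccharide, and TLR5 binds flagellin. The other set works inside endosomes and reads nucleic acids: TLR3 double-stranded RNA, TLR7 and TLR8 single-stranded RNA and its breakdown products, TLR9 DNA with CpG motifs, and TLR13 a stretch of bacterial ribosomal RNA. TLR13 is found in mice and not in people.

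Libraries held 20162729 to 48023102 counts. Ncoa2 was at 55.7 to 93.4 CPM (the counts of a gene scaled to the effective size of its library) in the 12 wild-type libraries and at 16.1 to 26.0 CPM in the 15 knockout libraries. Macrophage markers summed to 5630 to 7340 CPM over all groups. Markers of other cells differed between genotypes: in wild-type libraries the neutrophil list summed to 49.1 to 348 CPM, the stromal list to 143 to 741 CPM and the monocyte list to 8.23 to 28.7 CPM. Knockout libraries held 6.18 to 17 CPM, 8.14 to 38.6 CPM and 3.62 to 10.9 CPM of these. With vehicle, B cell markers summed to 5.95 to 8.13 CPM in wild type and 2.62 to 5.05 CPM in knockout, and conventional dendritic cell markers to 4.3 to 9.12 CPM and 1.34 to 1.82 CPM. Plasmacytoid dendritic cell markers summed to 0.508 to 3.08 CPM over all groups. In 4 libraries without IL4 (knockout vehicle 2 and 3, knockout dexamethasone 2 and wild-type dexamethasone 1), Arg1, which encodes arginase 1 and is raised by IL4, stood at 67.1 to 117 CPM, against 0.114 to 12.2 CPM in the others without IL4. Values without these 4 libraries are given beside the results they change most. In bulk RNA, fewer cells of a type and less RNA per cell cannot be told apart. Nothing in the labels ties libraries to separate mice, and p-values therefore reflect the spread among libraries, part of which may be technical.

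On GRCm38, Tlr8 (ENSMUSG00000040522, chrX:167242696-167264329, minus strand) and Tlr7 (ENSMUSG00000044583, chrX:167304929-167330558, minus strand) lie 40.6 kb apart near the end of the X chromosome. Tlr13 (ENSMUSG00000033777, chrX:106143204-106160493, plus strand) is on the same chromosome but far from this pair. Tlr6 (ENSMUSG00000051498, chr5:64952031-64960097, minus strand) and Tlr1 (ENSMUSG00000044827, chr5:64924679-64933563, minus strand) are neighbours 18.5 kb apart. Of the 50-base stretches in their transcripts, 15.4% of those of Tlr1 and 12.3% of those of Tlr6 also occur in another gene, chiefly in each other, so counts of this pair are less certain. The others are Tlr2 (ENSMUSG00000027995, chr3:83836272-83841767, minus strand), Tlr3 (ENSMUSG00000031639, chr8:45395665-45411080, minus strand), Tlr4 (ENSMUSG00000039005, chr4:66827584-66930284, plus strand), Tlr5 (ENSMUSG00000079164, chr1:182954788-182976044, plus strand) and Tlr9 (ENSMUSG00000045322, chr9:106222598-106226883, plus strand). Exons of Tlr3 overlap the antisense gene Gm45542, and the strand setting of the counting is not given, so these reads cannot be told apart.

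The sequences just before the starts of Tlr2 and Tlr8 are shown because these genes had the largest fall and the largest rise with IL4 among the 10 in wild type. RefSeq promoter windows (GRCm38.p6) were matched for 8 of the 10 genes. Both are written 5′ to 3′ on the minus strand, the gene's own. Capitals in Tlr2 mark a kappaB palindrome and the base before it. Together they also hold the looser NF-kappaB pattern of GGG and CC with any 5 bases between them. They begin 14 bases before the transcript start annotated by GENCODE, and 173 bases before the RefSeq start that bounds the window. For Tlr8 both starts are the same. Capitals in Tlr8, which begin 77 bases before the start, mark the only match among the 8 genes to TTC and GAA with any 4 bases between them, the spacing bound by STAT6, the factor that IL4 activates.
Tlr2, chr3:83841768-83841858: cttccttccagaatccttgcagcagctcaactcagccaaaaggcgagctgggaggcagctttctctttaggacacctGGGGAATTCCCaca
Tlr8, chrX:167264330-167264579: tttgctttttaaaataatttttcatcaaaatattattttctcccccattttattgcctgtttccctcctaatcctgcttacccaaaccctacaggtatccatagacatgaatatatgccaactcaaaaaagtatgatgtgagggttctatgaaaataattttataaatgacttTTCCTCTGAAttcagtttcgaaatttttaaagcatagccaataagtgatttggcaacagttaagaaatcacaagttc
Patterns were counted over both strands of all 32851 windows, each of 250 bases before the start. The looser NF-kappaB pattern occurred in 45.8% (Tlr2, Tlr3, Tlr5 and Tlr6 among them). The exact palindrome occurred in 0.0335%, with Tlr2 the single member among the 8. That palindrome is also a string that the looser pattern matched in Tlr2, so its share is a description and carries no test. The STAT6 pattern occurred in 5.85%. The full glucocorticoid receptor pattern, AGNACA and TGTNCT with any 3 bases between them, occurred in 0.0609% of windows and in none of the 8 genes. Such a match describes letters in a window and was not tested as a binding site.

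In wild-type cells with vehicle, levels per length (CPM per kb of exon) set Tlr13 first at 115 ± 9.47 (SD, n = 3), followed by Tlr2 at 81.5 ± 4.46. Tlr7 at 28.8 ± 2 and Tlr8 at 28.6 ± 6.22 did not differ beyond their spread, nor did Tlr4 at 17.6 ± 2.20 and Tlr1 at 17.3 ± 0.962. Tlr9 at 8.29 ± 1.28, Tlr6 at 5.19 ± 0.328, Tlr3 at 2.81 ± 0.382 and Tlr5 at 0.301 ± 0.0502 closed the order. Of the sum per length over these 10 receptors, Tlr13 held 37.7% and Tlr2 26.7%. With IL4 the share of Tlr2 was 3.72% and that of Tlr8 29.4%. With dexamethasone Tlr13 held 42.0%, Tlr7 20.3%, Tlr8 16.2% and Tlr2 7.30%. In knockout cells with dexamethasone Tlr7 stood first, at 161 ± 14.8 CPM per kb (n = 4), beside Tlr13 at 153 ± 7.74, and these did not differ beyond their spread. In knockout cells with IL4 it was Tlr8, at 165 ± 47.3 (n = 3), a mean that 1 library (number 4) set apart.

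**Figure D1:**
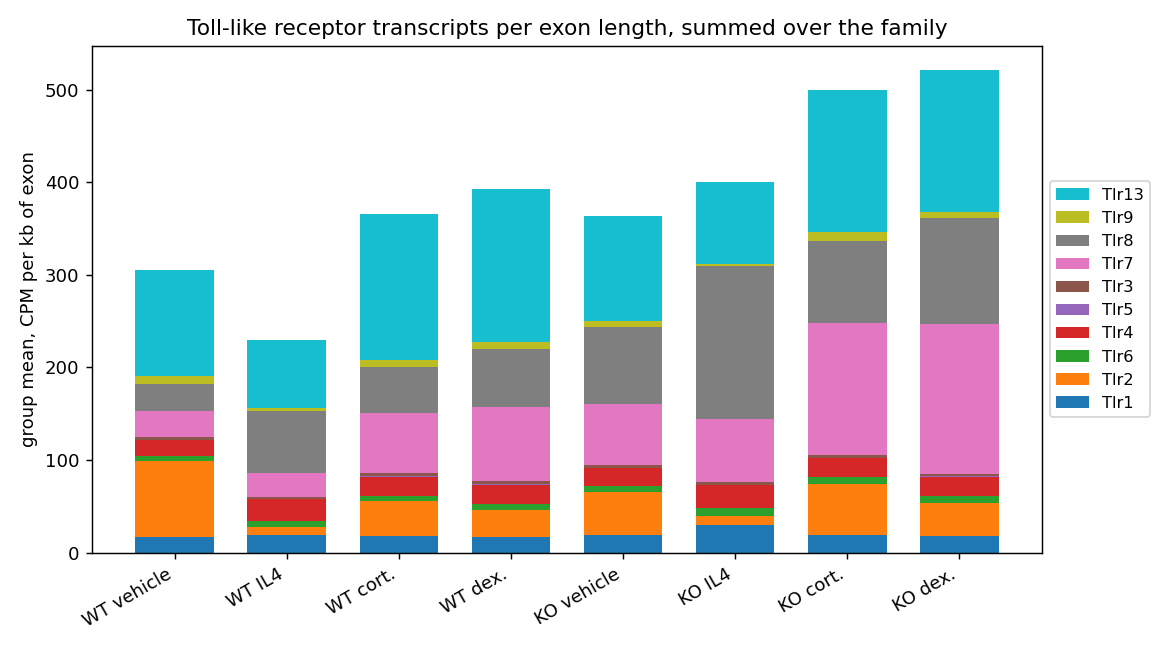
Group means in CPM per kb of exon, stacked over the 10 receptors for the 8 groups (WT, wild type; KO, knockout; cort., corticosterone; dex., dexamethasone). The sum over the 10 was 305 CPM per kb in wild type with vehicle, 230 with IL4 and 393 with dexamethasone. It was 521 in knockout with dexamethasone, where Tlr7 and Tlr8 take a larger share.

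IL4 lowered 4 receptors and raised 3 in wild-type macrophages. Tlr2, Tlr5, Tlr9 and Tlr13 fell and Tlr8, Tlr4 and Tlr6 rose, 7 of 10, where 30.1% of all genes tested were called (15.3% lower and 14.8% higher; edgeR's quasi-likelihood test, Benjamini-Hochberg adjusted p under 0.05). The median log2 fold change was -0.18 over the 10 genes and -0.01 over all genes. In knockout cells Tlr2, Tlr5, Tlr9 and Tlr13 fell and Tlr8, Tlr1, Tlr4 and Tlr6 rose, 8 of 10 against 26.5% of all genes (12% lower and 14.5% higher). Log2 fold changes are given with their standard error (SE), and each genotype's 3 treatments share its vehicle libraries.

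Tlr2, the shared partner of the lipopeptide receptors, was at 258, 247 and 231 CPM in the wild-type vehicle libraries and at 28.9, 25.3 and 22.9 CPM with IL4. Every IL4 library lay far below every vehicle library, a log2 fold change of -3.26 ± 0.33 (9.55-fold lower, adjusted p = 1.43e-07). In knockout cells Tlr2 was at 206, 74.6, 93.1 and 197 CPM with vehicle and at 30.4, 28.2 and 31.6 CPM with IL4. The fall there was -2.24 ± 0.30 (adjusted p = 1.49e-05), from vehicle libraries that split into a high and a low pair. The low pair are the vehicle libraries with high Arg1, and without them the log2 fold change was -2.76 (adjusted p = 1.35e-10).

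Tlr9, the CpG DNA receptor, was at 23.9, 32.5 and 30 CPM with vehicle and at 8.05, 7.70 and 8.29 CPM with IL4 in wild type. The groups did not overlap, and the log2 fold change was -1.85 ± 0.34 (adjusted p = 0.000183). In knockout cells Tlr9 was at 30, 10, 13.7 and 29.7 CPM with vehicle and at 8.96, 6.24 and 12.4 CPM with IL4. Here the groups overlapped through vehicle library 2, the lower of the same low pair, and the fall was -1.17 ± 0.32 (adjusted p = 0.00859). Fitted on the knockout vehicle and IL4 libraries alone, this fall had an adjusted p of 0.0856, and without the libraries high in Arg1 it was -1.71 (adjusted p = 3.88e-07). B cell markers, the list of another cell type known for TLR9, summed to 5.95 to 8.13 CPM with vehicle and 4.04 to 6.97 CPM with IL4 in wild type. Plasmacytoid dendritic cells are known for TLR9 too, and their markers summed to 0.957 to 1.79 CPM with vehicle and 2.12 to 3.08 CPM with IL4. Of the 6 genes on that list 5 were in the count table and 1 had enough counts to be tested. Siglech, on the same list, had 0 counts in every wild-type IL4 library, so the higher sum came from other genes of the list. The part of either cell type was not tested.

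Tlr5, the flagellin receptor, was near the limit of detection. It had 34 to 50 counts in each wild-type vehicle library, at 1.24, 1.38 and 1.71 CPM, and 0 to 13 counts with IL4, at 0.16, 0 and 0.449 CPM. It fell by 2.76 on the log2 scale (SE 0.55, adjusted p = 0.000438). In knockout cells Tlr5 was at 1.01, 0.246, 0.479 and 0.966 CPM with vehicle and at 0.226, 0.0437 and 0.203 CPM with IL4, a log2 fold change of -2.00 ± 0.60 (adjusted p = 0.0159). That call rests on few counts: it was lost without knockout vehicle library 4 (-1.77) or without knockout IL4 library 2 (-1.63), and was not made with those groups alone (-2.01, adjusted p = 0.0568). The value was -2.57 without the libraries high in Arg1 (adjusted p = 0.00149).

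Tlr13, the receptor for bacterial ribosomal RNA, was at 449, 529 and 504 CPM with vehicle and at 306, 326 and 321 CPM with IL4 in wild type. The fall was smaller than those above but tight, -0.64 ± 0.09 (adjusted p = 1.06e-05). The fall in knockout cells was -0.36 ± 0.09 (adjusted p = 0.00384), from 545, 439, 452 and 515 CPM to 334, 368 and 439 CPM. The highest IL4 library met the lowest vehicle library there, and the call was lost with those groups fitted alone (-0.37, adjusted p = 0.0727). The vehicle libraries at 439 and 452 CPM are those high in Arg1. Without the libraries high in Arg1 the value was -0.5 (adjusted p = 0.00018).

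Tlr8 was the receptor that IL4 raised most in either genotype. It was at 77.4, 120 and 111 CPM with vehicle and at 216, 261 and 250 CPM with IL4 in wild type, a log2 fold change of 1.24 ± 0.20 (2.36-fold, adjusted p = 4.18e-05). Knockout libraries were at 243, 310, 334 and 315 CPM with vehicle and at 484, 508 and 789 CPM with IL4, a log2 fold change of 0.98 ± 0.18 (adjusted p = 0.000349). Its neighbour Tlr7 did not pass the test with IL4: it was at 109, 125 and 119 CPM with vehicle and 102, 108 and 103 CPM with IL4 in wild type (-0.17, 95% interval -0.45 to 0.11). In knockout cells the value for Tlr7 was 0.04 (-0.21 to 0.30). The difference between these neighbours in their response to IL4 was not tested.

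Tlr4, the lipopolysaccharide receptor, rose by a modest amount with IL4, from 84, 106 and 104 CPM to 119, 141 and 134 CPM in wild type (0.42 ± 0.09, adjusted p = 0.00117). In knockout libraries it rose from 112, 99, 110 and 103 CPM to 141, 133 and 150 CPM (0.41 ± 0.09, adjusted p = 0.00114). The groups did not overlap in either genotype. Tlr6, a partner of TLR2, rose by 0.30 ± 0.09 in wild type (adjusted p = 0.0116), from 18.3 to 20.7 CPM up to 21.6 to 25.1 CPM, a call lost without wild-type vehicle library 3 (0.25, adjusted p = 0.0651). In knockout libraries the rise was 0.41 ± 0.08 (adjusted p = 0.000591).

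Tlr1, the other partner of TLR2, was at 54.8, 61.2 and 57.3 CPM with vehicle and at 61.4, 67.9 and 64.8 CPM with IL4 in wild type, and was not called (0.16 ± 0.12). Knockout libraries held 56.7 to 68.9 CPM with vehicle and 79.7, 85.7 and 132 CPM with IL4, all above vehicle, a rise of 0.68 ± 0.11 (adjusted p = 9.74e-05) that was 0.42 without knockout IL4 library 4. That library was the highest of all 27 for Tlr1, Tlr3, Tlr4, Tlr6 and Tlr8. Tlr3, the receptor for double-stranded RNA, was at 11.1 to 24.4 CPM over all libraries and passed the test in none of the 17 comparisons (smallest adjusted p 0.102).

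**Figure D2:**
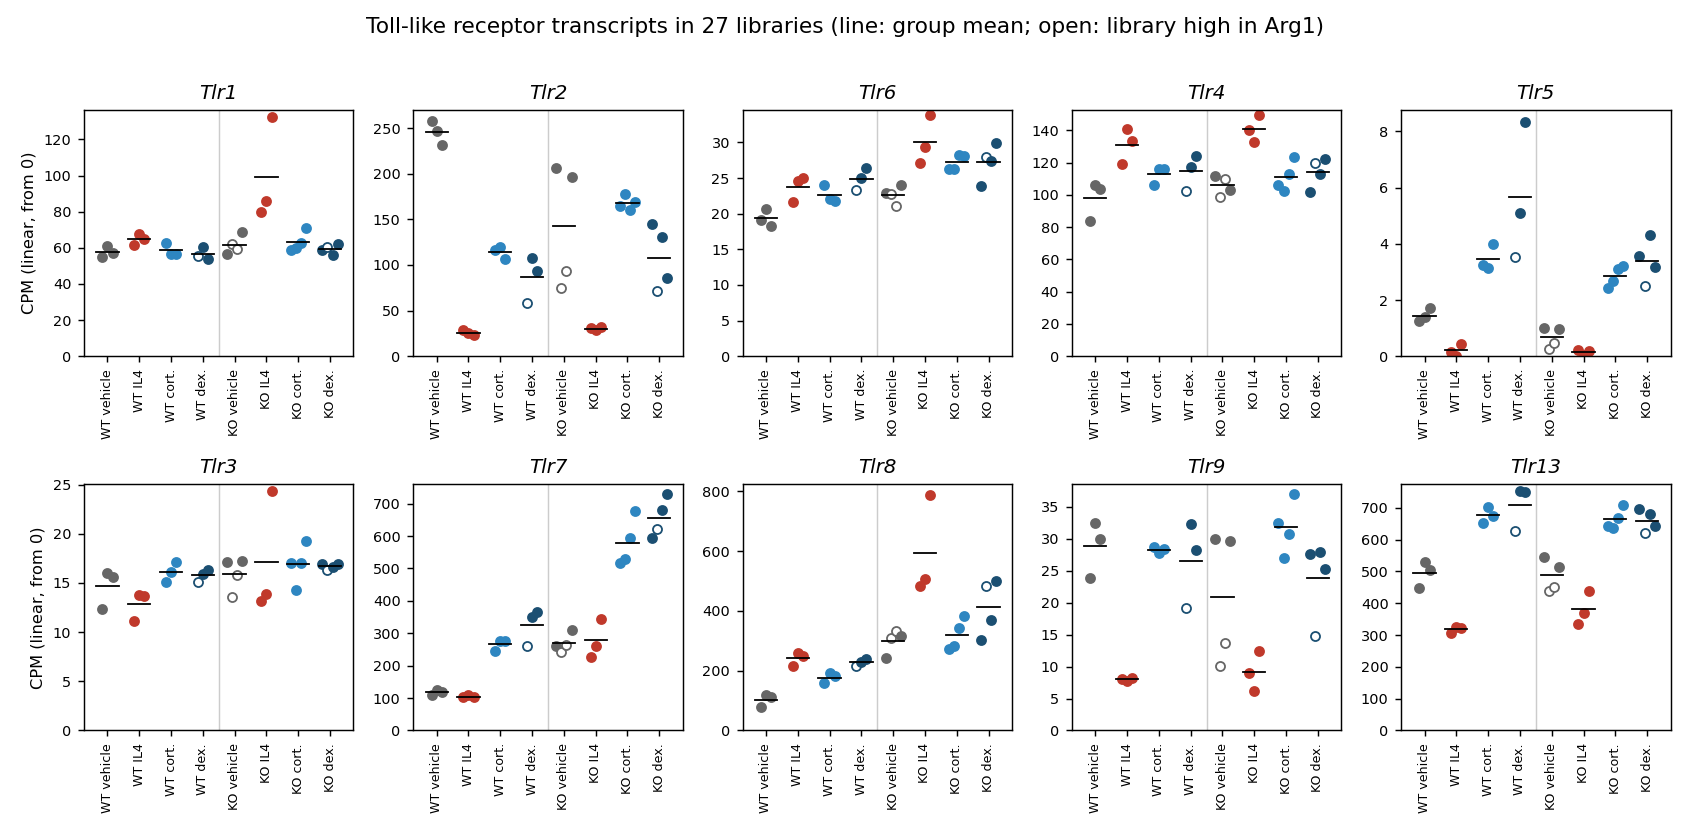
CPM of each receptor in all 27 libraries, on linear axes from 0 and in 8 groups, with vehicle in grey, IL4 in red, corticosterone in light blue and dexamethasone in dark blue. Lines are group means and open circles the 4 libraries with high Arg1; with IL4 all Tlr2 values lie between 22.9 and 31.6 CPM, and Tlr7 is above 500 CPM in the knockout libraries with a glucocorticoid and in no other group.

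The glucocorticoids raised Tlr7 and Tlr13 in both genotypes. Corticosterone was called for 4 of 10 receptors in wild type (Tlr7, Tlr8 and Tlr13 higher, Tlr2 lower), where 5.94% of all genes were called (3.48% higher and 2.46% lower). In knockout it was called for 4 of 10 (Tlr5, Tlr7, Tlr13 and Tlr6, all higher), where 12.1% of all genes were called and 6.01% were higher. Dexamethasone was called for 6 of 10 in wild type (Tlr7, Tlr5, Tlr8, Tlr13 and Tlr6 higher, Tlr2 lower) against 13.7% of all genes (7.66% higher and 6.03% lower). In knockout it was called for 4 of 10 (Tlr5, Tlr7, Tlr13 and Tlr6, all higher) against 18.4% of all genes, with 9.1% higher. The median log2 fold change of the 10 genes was 0.21 with corticosterone and 0.29 with dexamethasone in wild type, and 0.25 and 0.24 in knockout, where the medians over all genes were 0.01, 0.01, 0.00 and 0.00.

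Tlr7, the endosomal sensor of single-stranded RNA, was at 246, 275 and 276 CPM with corticosterone and at 261, 350 and 365 CPM with dexamethasone in wild type, against 109 to 125 CPM with vehicle. Every treated library lay far above the highest vehicle library. The log2 fold changes were 1.18 ± 0.14 (adjusted p = 2.94e-06) and 1.47 ± 0.14 (adjusted p = 3.58e-08). In knockout cells Tlr7 was at 262, 243, 265 and 309 CPM with vehicle, at 516, 529, 593 and 678 CPM with corticosterone and at 594, 623, 682 and 729 CPM with dexamethasone. The log2 fold changes there were 1.10 ± 0.12 (adjusted p = 5.45e-07) and 1.28 ± 0.12 (adjusted p = 2.15e-08). Every one of these calls was kept in all alternative analyses, with log2 values between 1 and 1.6.

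Tlr8 was at 158, 191 and 182 CPM with corticosterone and at 214, 229 and 240 CPM with dexamethasone in wild type, against 77.4 to 120 CPM with vehicle. It rose by 0.79 ± 0.20 (adjusted p = 0.0167) and by 1.15 ± 0.20 (adjusted p = 0.000251). The call with corticosterone was lost without wild-type vehicle library 1 (0.62), corticosterone library 2 (0.73) or corticosterone library 3 (0.77), without the filter on low counts (0.79, adjusted p = 0.0643) and with those groups fitted alone (0.78, adjusted p = 0.0575). In knockout cells Tlr8 was at 272, 281, 343 and 384 CPM with corticosterone and at 302, 483, 369 and 501 CPM with dexamethasone, overlapping the 243 to 334 CPM of vehicle. Neither was called (0.09 ± 0.17, adjusted p = 0.831, and 0.46 ± 0.17, adjusted p = 0.0629). The second was called without knockout dexamethasone library 1 (0.58, adjusted p = 0.0229) and by DESeq2 (0.46, adjusted p = 0.0340). Without the libraries high in Arg1 the dexamethasone value was 0.48 and was not called (adjusted p = 0.215).

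Tlr13 was at 652, 702 and 674 CPM with corticosterone and 628, 752 and 751 CPM with dexamethasone in wild type, above every vehicle library. The rises were 0.45 ± 0.09 (adjusted p = 0.00324) and 0.52 ± 0.09 (adjusted p = 0.000297). Knockout libraries were at 636 to 709 CPM and at 622 to 695 CPM, again above every vehicle library, with rises of 0.45 ± 0.08 (adjusted p = 0.000474) and 0.44 ± 0.08 (adjusted p = 0.000351).

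Tlr5 had low counts and the largest fitted log2 changes with the glucocorticoids. In wild type it was at 3.25, 3.13 and 3.98 CPM with corticosterone (log2 fold change 1.26 ± 0.41, adjusted p = 0.0727) and at 3.53, 5.11 and 8.35 CPM with dexamethasone (1.98 ± 0.41, 3.94-fold, adjusted p = 0.00138). The corticosterone value was called with a replicate block (1.27, adjusted p = 0.00416) and by DESeq2 (1.25, adjusted p = 0.0186). In knockout cells Tlr5 was at 2.43, 2.69, 3.10 and 3.23 CPM with corticosterone and at 3.56, 2.49, 4.31 and 3.17 CPM with dexamethasone, with rises of 2.09 ± 0.38 (adjusted p = 0.000562) and 2.33 ± 0.38 (adjusted p = 9.22e-05). All treated libraries lay above all vehicle libraries of their genotype. Without the libraries high in Arg1 the knockout rises were 1.52 (adjusted p = 0.0208) and 1.89 (adjusted p = 0.00309).

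Tlr2 was at 117, 120 and 106 CPM with corticosterone and at 58.9, 107 and 93.8 CPM with dexamethasone in wild type, below every vehicle library. It fell by 1.10 (SE 0.30, adjusted p = 0.0289) and by 1.5 (SE 0.30, adjusted p = 0.00142). The corticosterone call was lost when any one of the 6 libraries was left out, with log2 values of -1.14 to -1.06 and adjusted p of 0.0618 to 0.117. In knockout cells Tlr2 was at 164, 178, 160 and 169 CPM with corticosterone and at 144, 71.4, 130 and 85.3 CPM with dexamethasone. The corticosterone libraries lay between the high and the low pair of vehicle libraries, and the dexamethasone libraries ranged from just under the low pair to below the high pair. Neither was called (0.23 ± 0.26 and -0.40 ± 0.26). Without the libraries high in Arg1, the corticosterone value turned to -0.28 (adjusted p = 0.284) and the dexamethasone value was -0.76 and was called (adjusted p = 0.000748). Knockout dexamethasone library 4, with Tlr2 at 85.3 CPM, stayed in that fit. Its Arg1 was at 12.2 CPM, against 0.277 and 0.82 CPM in libraries 1 and 3.

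Tlr6 rose with dexamethasone in wild type, from 18.3 to 20.7 CPM to 23.3 to 26.3 CPM (0.36 ± 0.09, adjusted p = 0.00571). Its rises in knockout cells, 0.26 ± 0.07 with corticosterone and 0.27 ± 0.07 with dexamethasone (adjusted p = 0.0205 and 0.0118), were lost without the libraries high in Arg1 (0.20 and 0.21, adjusted p = 0.276 and 0.204). They were lost also without vehicle library 2 or 3 or corticosterone library 3 or 4 for the first (0.23 to 0.25), and without dexamethasone library 4 for the second (0.23). Tlr4 was at 102 to 124 CPM with either glucocorticoid in wild type and was not called (0.20 ± 0.09 and 0.23 ± 0.09), though a replicate block gave calls (0.21, adjusted p = 0.0414, and 0.23, adjusted p = 0.0147).

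Tlr9 was not called with either glucocorticoid. With corticosterone it was at 28.8, 27.7 and 28.5 CPM in wild type, within the 23.9 to 32.5 CPM of vehicle, and with dexamethasone at 19.3, 32.3 and 28.3 CPM. Its log2 fold changes were -0.03 (95% interval -0.67 to 0.62) and -0.11 (-0.76 to 0.54). In knockout cells it was at 27 to 37 CPM with corticosterone (0.61 ± 0.27, adjusted p = 0.169) and at 14.8 to 28.0 CPM with dexamethasone. The first was called with a replicate block (0.71, adjusted p = 0.0138) and was 0.08 without the libraries high in Arg1 (adjusted p = 0.894). The second was 0.20 and turned to -0.15 without them (adjusted p = 0.687 and 0.663). The libraries high in Arg1 were again low: 10 and 13.7 CPM in knockout vehicle 2 and 3, 14.8 CPM in knockout dexamethasone 2 and 19.3 CPM in wild-type dexamethasone 1 were the lowest of their groups, and the part of what sets these libraries apart was not tested.

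**Figure D3:**
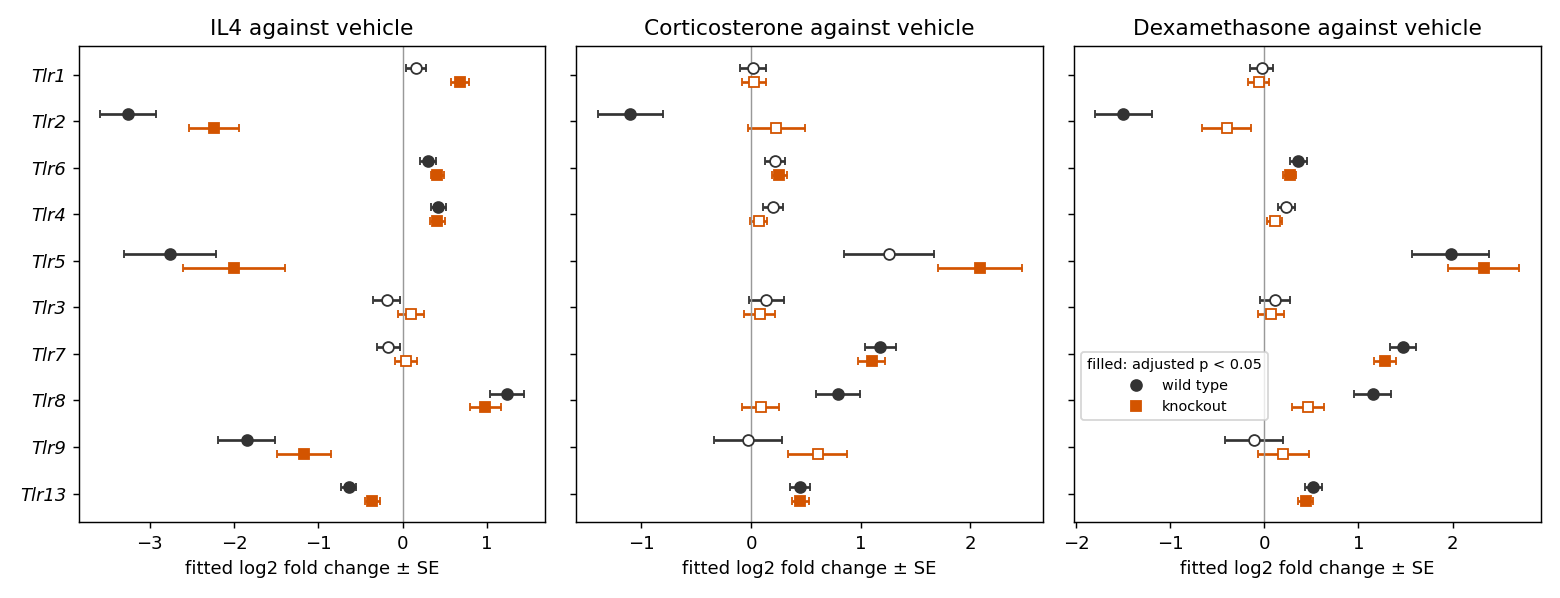
Fitted log2 fold change ± SE of each receptor with IL4, corticosterone and dexamethasone against vehicle, for wild type (circles, black) and knockout (squares, orange), filled where the adjusted p was under 0.05; each panel has its own horizontal scale. Tlr2 lies farthest left with IL4 (-3.26 and -2.24), and Tlr7 lies between 1.10 and 1.47 with the glucocorticoids in both genotypes.

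The 2 glucocorticoids were used at different concentrations, so their values stand side by side. Between them 0 of 10 receptors were called in wild type, where 0.185% of all genes were, and 0 of 10 in knockout, where 0.322% were (edgeR's quasi-likelihood test; 1 and 2 receptors had an unadjusted p under 0.05, and DESeq2 called 0 and 0). For Tlr7 the dexamethasone minus corticosterone difference in wild type was 0.29 (95% interval 0.02 to 0.57), while in knockout it was 0.18 (-0.06 to 0.42). The same differences for Tlr2 were -0.40 (-1.02 to 0.22) and -0.64 (-1.17 to -0.10).

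In wild type, IL4 libraries had lower levels of 5 receptors than libraries of either glucocorticoid. These were Tlr5, Tlr2, Tlr9, Tlr7 and Tlr13, 5 of 10 against corticosterone and 5 of 10 against dexamethasone, where 31.7% of all genes were called in each, 16.9% and 16.7% lower. The IL4 libraries enter both comparisons. Tlr5 differed most (-4.01 ± 0.53 and -4.73 ± 0.52), then Tlr2 (-2.15 ± 0.32 and -1.76 ± 0.31). Tlr7 differed by -1.35 ± 0.14 (adjusted p = 5.83e-08) and -1.64 ± 0.14 (adjusted p = 2.71e-09), and Tlr13 by -1.09 ± 0.09 (adjusted p = 4.73e-09) and -1.16 ± 0.09 (adjusted p = 1.39e-09). Tlr8, which all 3 treatments raised in wild type, was 0.45 ± 0.20 higher with IL4 than with corticosterone (adjusted p = 0.0845; called with a replicate block, 0.45, adjusted p = 0.00421) and 0.09 ± 0.20 higher than with dexamethasone. With the block, Tlr4 (0.22, adjusted p = 0.0109, and 0.20, adjusted p = 0.0204) was called against both and Tlr3 (-0.33, adjusted p = 0.0316) against corticosterone.

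Between genotypes, Tlr7 and Tlr8 were higher in knockout cells in all 4 conditions. Receptors called were 3 of 10 with vehicle (Tlr7 and Tlr8 higher, Tlr2 lower) against 18.8% of all genes (8.47% higher and 10.3% lower), and 4 of 10 with IL4 (Tlr7, Tlr8, Tlr1 and Tlr6 higher) against 12.4% (5.76% higher). They were 3 of 10 with corticosterone (Tlr7, Tlr8 and Tlr6 higher) against 14.4% (5.46% higher), and 2 of 10 with dexamethasone (Tlr7 and Tlr8 higher) against 17.2% (6.7% higher). The receptors called were 30%, 40%, 30% and 20% of the 10, above the share of all genes each time and near it with dexamethasone. Counts out of 10 are small, and the neighbours Tlr7 and Tlr8 are in every one of them. In every one of these comparisons 5 of the 6 tested neutrophil markers (of 8 listed) and 4 of 4 stromal markers were lower in knockout, as were 3, 2, 4 and 4 of 4 monocyte markers with vehicle, IL4, corticosterone and dexamethasone. Ly6g, a defining neutrophil marker, was at 0 in all libraries of wild type with dexamethasone and of knockout with IL4, corticosterone or dexamethasone. The part of these cells in the genotype differences was not tested.

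Tlr7 was at 109 to 125 CPM in wild-type and 243 to 309 CPM in knockout libraries with vehicle, a log2 difference of 1.20 ± 0.13 (2.30-fold, adjusted p = 6.93e-07). It differed by 1.41 ± 0.14 with IL4 (adjusted p = 2.37e-07), 1.12 ± 0.13 with corticosterone (adjusted p = 1.97e-06) and 1.01 ± 0.13 with dexamethasone (adjusted p = 6.77e-06). In each condition all knockout libraries lay above all wild-type libraries. Tlr8 differed by 1.55 ± 0.19 with vehicle (2.93-fold, adjusted p = 6.12e-06), 1.29 ± 0.20 with IL4 (adjusted p = 0.000206), 0.86 ± 0.19 with corticosterone (adjusted p = 0.00273) and 0.86 ± 0.19 with dexamethasone (adjusted p = 0.00222), again with no overlap. All 8 calls held in every alternative analysis but 1: without the libraries high in Arg1, Tlr8 with dexamethasone was 0.74 (adjusted p = 0.0530).

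Other receptors differed less between genotypes. Tlr2 with vehicle was lower in knockout by 0.78 on the log2 scale (SE 0.27, adjusted p = 0.0499), a call that was lost in 9 of 14 alternatives. Without the libraries high in Arg1 it was -0.29 (adjusted p = 0.209), and it was lost also without any single wild-type vehicle library (-0.82 to -0.75) or without knockout vehicle library 2 (-0.59) or 3 (-0.63). Tlr1 with IL4 was higher by 0.62 ± 0.12 (adjusted p = 0.00204; 0.36 without knockout IL4 library 4, and 0.59 with adjusted p = 0.146 when the IL4 libraries were fitted alone). Tlr6 was higher by 0.34 ± 0.09 with IL4 (adjusted p = 0.0119). That call was lost without wild-type IL4 library 1 or knockout IL4 library 4 (0.25 each). It was lost also when the IL4 libraries were fitted alone (0.31, adjusted p = 0.209). With corticosterone Tlr6 was higher by 0.27 ± 0.08 (adjusted p = 0.0288). This second call was lost without any of wild-type libraries 2 and 3 and knockout libraries 2, 3 and 4 (0.24 to 0.27). It was lost also without the filter on low counts (0.26, adjusted p = 0.0747). Tlr5 was lower in all 4 knockout vehicle libraries than in any wild-type one (-1.10 ± 0.42, adjusted p = 0.0720; DESeq2 called it, -1.11, adjusted p = 0.0226), and without the libraries high in Arg1 the difference was -0.55 (adjusted p = 0.456). Tlr9 with vehicle was -0.47 (adjusted p = 0.311), and 0.04 without those libraries (adjusted p = 0.911). Tlr2 with corticosterone was higher in all knockout libraries and not called (0.55 ± 0.28, adjusted p = 0.223; called when those libraries were fitted alone, 0.55, adjusted p = 0.00022). Tlr13, the third X-linked receptor, was not called: its differences were -0.02, 0.26, -0.03 and -0.11 with vehicle, IL4, corticosterone and dexamethasone (95% intervals -0.20 to 0.16, 0.07 to 0.45, -0.20 to 0.15 and -0.29 to 0.07). Without knockout IL4 library 1, Tlr13 (0.35, adjusted p = 0.0234) and Tlr3 (0.58, adjusted p = 0.0260) were called with IL4.

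Genes beside Tlr7 and Tlr8 were also higher in knockout cells. They were looked at after these values were known, and their choice carries no test of its own. The limits of the stretch were not set in advance either, and it includes Tlr7 and Tlr8 themselves. Its counts and medians are therefore a description. From Tmsb4x through Tlr8, Tlr7, Prps2, Msl3 and Arhgap6 to Hccs, 7 genes of at least 1 CPM on average were tested, and in knockout 6 of 7 were higher with vehicle and 7 of 7 with each of IL4, corticosterone and dexamethasone. Of the 370 tested genes at that level elsewhere on the X chromosome, 9.19%, 12.2%, 8.38% and 8.92% were called higher. The median log2 difference of the 7 was 1.11, 1.15, 0.88 and 0.95, against 0.06, 0.12, 0.03 and 0.02 elsewhere on the chromosome.

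Msl3 (chrX:168654117-168673898), a subunit of a chromatin complex, was at 55.0 to 62.4 CPM in the 12 wild-type libraries of all treatments and at 107 to 152 CPM in the 15 knockout libraries. Hccs (chrX:169250193-169320372), which attaches haem to cytochrome c, was at 35.5 to 41.3 CPM and 65.1 to 77.1 CPM. Prps2 (chrX:167346322-167382749), an enzyme of nucleotide synthesis, was at 50.3 to 94.5 CPM and 114 to 173 CPM. For all 3 genes no knockout library reached down to a wild-type library, whatever the treatment.

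The log2 difference of Msl3 was 1.11 ± 0.07, 1.15 ± 0.08, 1.03 ± 0.07 and 1.02 ± 0.07 in the 4 conditions, and that of Hccs was 0.88 ± 0.06, 0.85 ± 0.07, 0.85 ± 0.06 and 0.95 ± 0.06. Arhgap6, which overlaps Hccs on the map so that some reads cannot be told apart, differed by 1.20 to 2.11. Tmsb4x, which encodes the actin-binding thymosin beta 4, differed less, by 0.30 ± 0.12 with vehicle (adjusted p = 0.0974) and 0.52 to 0.58 with the treatments.

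On the side toward the centromere, Tceanc, Rab9, Trappc2 and Ofd1 differed by -0.21 to 0.27, and Trappc2 with corticosterone (0.27 ± 0.07, adjusted p = 0.0129) was called. Gpm6b, farther out and under 1 CPM, was lower in knockout (-1.47 to -1.22). On the far side Mid1 differed by -0.24 to 0.14 and was not called. Counted from the lower end of Tlr7 to the lower end of each gene, Tmsb4x lay at -0.098 Mb and Hccs at 1.945 Mb, while Tceanc lay at -0.805 Mb and Mid1 at 2.38 Mb. Of the tested genes under 1 CPM between them, Gm15232 (-0.217 Mb) was higher in knockout with vehicle, IL4 and corticosterone (1.05, 2.01 and 1.38), BC022960 (2.063 Mb) with vehicle and IL4 (0.86 and 1.31), and Gm15246 in none.

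In mice the end of the X chromosome that holds Tlr7 is known for the Yaa mutation, in which a copy of it lies on the Y chromosome and raises TLR7. All 27 libraries had at most 1 count of Xist and 70.9 to 112 CPM of the Y-linked gene Ddx3y, so all match the male sex given in the labels. The number of copies of this stretch in either genotype was not tested, and in this design it cannot be told apart from the loss of GRIP1.

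**Figure D4:**
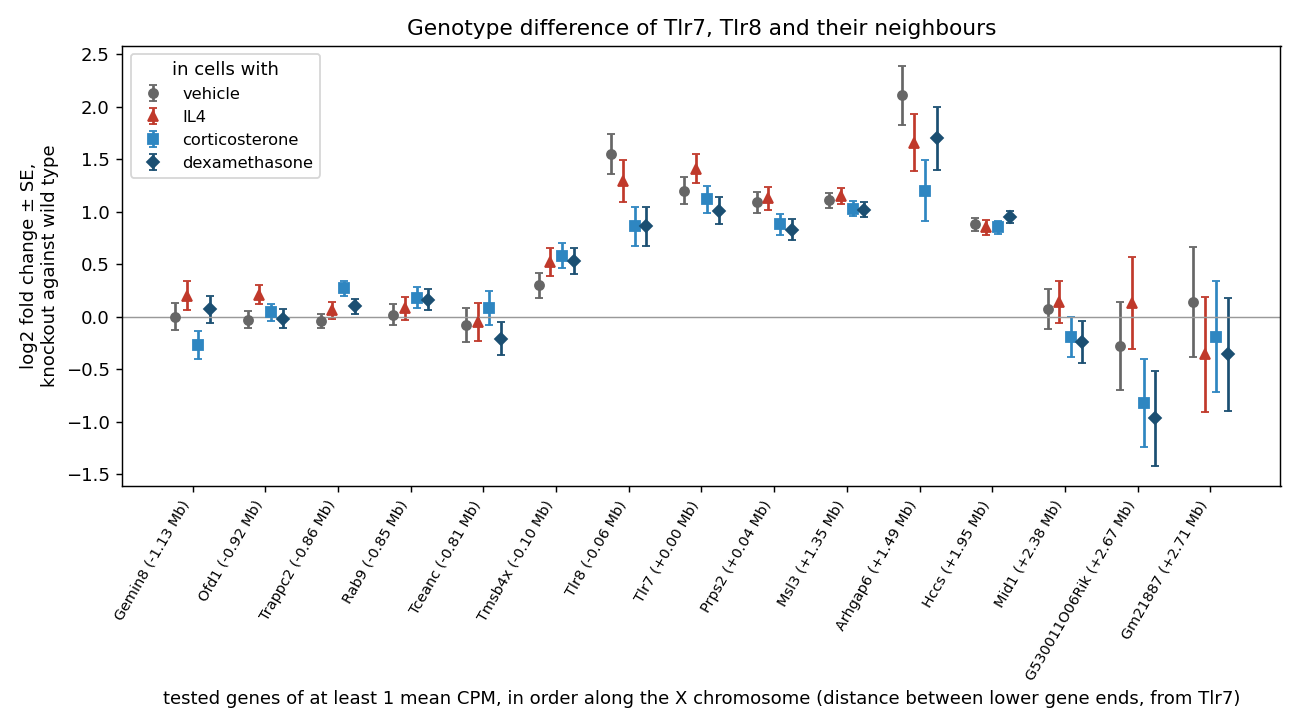
Log2 difference ± SE of knockout against wild type for tested genes of at least 1 CPM near the end of the X chromosome, in map order, with the distance of each gene's lower end from that of Tlr7 and 1 symbol per condition. Genes from Tlr8 to Hccs lie between 0.83 and 2.11, Tmsb4x between 0.30 and 0.58, and the genes outside this stretch lie between -0.97 and 0.27, with Trappc2 under corticosterone their single call.

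For the change with treatment, no receptor passed the test of a genotype difference. In the 3 interaction tests 0, 0 and 0 of 10 were called, where 0.0274%, 0.0206% and 0.185% of all genes were called for IL4, corticosterone and dexamethasone (edgeR's quasi-likelihood test; 3, 2 and 2 receptors had an unadjusted p under 0.05, and DESeq2 called 0 in each). For Tlr7 the knockout response minus the wild-type response was 0.21 (95% interval -0.17 to 0.59), -0.08 (-0.44 to 0.29) and -0.19 (-0.55 to 0.18). For Tlr8 it was -0.26 ± 0.27, -0.70 ± 0.26 and -0.69 ± 0.26. The corticosterone value was called with a replicate block (-0.71, adjusted p = 0.0411). So was the dexamethasone value (-0.72, adjusted p = 0.0276), though same-numbered knockout libraries with dexamethasone and vehicle did not all deviate together (r 0.01 to 0.36). For Tlr2 it was 1.01 ± 0.42 (adjusted p = 0.470), 1.34 ± 0.39 (adjusted p = 0.250) and 1.10 ± 0.39 (adjusted p = 0.491), with the split of the knockout vehicle libraries in all 3. The values were 0.49, 0.84 and 0.54 without the libraries high in Arg1.

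Genes that act with the receptors moved in part. For each list below, counts of called members are read against the share of all genes called, which with IL4 was 14.8% higher and 15.3% lower in wild type and 14.5% and 12% in knockout. Among 12 co-receptors and chaperones, IL4 raised 2 and lowered 2 in wild type and raised 2 and lowered 3 in knockout, close to those shares. Cd14, the co-receptor of TLR4 and TLR2, went from 470, 358 and 341 CPM to 70.7, 51.4 and 52.9 CPM in wild type, a fall of 2.74 on the log2 scale (SE 0.28, adjusted p = 1.56e-07), and fell by 2.41 in knockout (SE 0.27, adjusted p = 1.29e-06). Cd36, a lipid scavenger that assists TLR2, rose by 0.95 ± 0.14 and 0.50 ± 0.13. Ly96 (MD-2), the partner of TLR4 that holds lipopolysaccharide, was not called in any of the 6 treatment comparisons.

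The glucocorticoids raised 2 of these 12 in each comparison, Lgmn and Hsp90b1, and corticosterone and dexamethasone lowered 0 and 1 in wild type and 1 and 2 in knockout. Of all genes 3.48% and 7.66% were higher in wild type and 6.01% and 9.1% in knockout. In wild type 2.46% and 6.03% were lower, and in knockout 12.1% and 18.4% were called in either direction. Lgmn, an endosomal protease that cuts TLR7 and TLR9, rose by 0.42 ± 0.07 with corticosterone and 0.59 ± 0.07 with dexamethasone in wild type, and by 0.37 ± 0.06 and 0.51 ± 0.06 in knockout. Hsp90b1, the chaperone gp96 that most Toll-like receptors need to fold, rose by 0.32 ± 0.07, 0.41 ± 0.07, 0.31 ± 0.06 and 0.39 ± 0.06. Unc93b1, which carries TLR7 and TLR9 to endosomes, was not called with any treatment, but was higher in knockout than in wild type with IL4, corticosterone and dexamethasone (0.33 ± 0.08, 0.41 ± 0.08 and 0.43 ± 0.08).

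Of the 5 adaptors, Myd88 fell and Ticam1 (TRIF) rose with IL4. Myd88 changed by -0.45 ± 0.07 in wild type and -0.28 ± 0.07 in knockout, and Ticam1 by 0.48 ± 0.11 and 0.53 ± 0.10. In wild type with IL4 the list had 1 member higher and 2 lower, against 14.8% and 15.3% of all genes. With dexamethasone Tirap rose in wild type (0.35 ± 0.11), and Myd88 rose in knockout with both glucocorticoids (0.21 ± 0.06 and 0.19 ± 0.06). Ticam2 (TRAM), the bridge between TLR4 and TRIF, was the adaptor called between genotypes, higher in knockout in all 4 conditions by 0.37 to 0.49.

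Of the 9 transcription factors, 3 fell and 0 rose with either glucocorticoid in both genotypes: Nfkb1, Nfkb2 and Relb, the NF-kappaB precursors and a partner. Of all genes, 2.46% and 6.03% fell in wild type. In knockout 12.1% and 18.4% of all genes were called in either direction, and 6.01% and 9.1% were higher. Relb fell by 1.12 and 1.47 in wild type and by 0.66 and 1.07 in knockout. With IL4 Relb fell by 1.43 and 1.20. Among the 14 brakes on Toll-like receptor signalling, 4 rose and 6 fell with IL4 in wild type, against 14.8% and 15.3% of all genes. Tnip3, an inhibitor of NF-kappaB, fell most with the glucocorticoids, by 1.76 and 2.52 in wild type and by 1.80 and 2.89 in knockout. Irak3, a kinase-like inhibitor, fell by 2.02 with IL4, 1.09 with corticosterone and 1.28 with dexamethasone in wild type.

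Of the 18 kinases and ligases, IL4 raised 3 and lowered 5 in wild type, against 14.8% and 15.3% of all genes. Between genotypes 5 were higher and 0 lower in knockout with vehicle, against 8.47% and 10.3% of all genes. With IL4, corticosterone and dexamethasone 5, 4 and 4 were higher and 1 lower in each. Of all genes 12.4%, 14.4% and 17.2% were called there in either direction, and 5.76%, 5.46% and 6.7% were higher. Irak1, the X-linked kinase that MyD88 recruits, was higher in all 4 conditions (0.32 ± 0.05, 0.38 ± 0.06, 0.22 ± 0.05 and 0.23 ± 0.05). Of the 11 cytosolic and lectin pattern receptors tested, of 12 listed, 2 rose and 3 fell with IL4 in wild type, near the 14.8% and 15.3% of all genes. Clec7a (dectin-1), a receptor for fungal glucans, rose 10.4-fold (adjusted p = 4.9e-05), and Clec4e (Mincle) fell by 1.56 on the log2 scale (SE 0.31).

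The genes whose log2 CPM followed each receptor most closely over the 27 libraries, by Pearson's r, were Pou2f2 for Tlr2 (0.980), Cd93 for Tlr13 (0.988), Tex261 for Tlr7 (0.975), Cd84 for Tlr8 (0.962), Adgb for Tlr9 (0.969) and St3gal5 for Tlr5 (0.953). For Tlr4, Tlr1 and Tlr6 they were Cltc (0.929), Zeb2 (0.914) and Vps41 (0.898). Predicted genes and clone names were left out of this search. The points share groups, libraries and scaling, and these values describe the pattern alone.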

How the data were processed

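The authors deposited raw read counts per gene for 27 libraries. The tools named in the submitters' processing notes are fastp 0.23.2, STAR 2.7.0, featureCounts and edgeR 3.38.4, with build mm10. Whether counting used strand is not given there or in the labels. Genes were filtered with filterByExpr (minimum count 10), scaled by TMM and fitted in 1 model with 8 group means (edgeR 4.0.16 in R 4.3.3, quasi-likelihood, legacy dispersion, robust), and p-values were adjusted by Benjamini-Hochberg over all 14589 genes tested, with a call at 0.05. All 17 comparisons were taken from this fit. In data simulated for IL4 against vehicle in wild type (14314 genes tested), 71.7% of 99 genes changed by 1 log2 unit were called, and 93.9% of 99 changed by 2. The other genes were set to be unchanged there and counts were drawn independently, while 30.1% of genes were called in the data. These shares are therefore not the power of the test in the data. Levels per kb use the exon union of GENCODE vM21.

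The 10 receptors are all named. Of each list of pathway genes, the called members with the 3 smallest adjusted p, and Cd14, Ly96, Unc93b1, Myd88, Tirap, Ticam1 and Irak3 always, could be named; Cd180, Ly86, Ticam2 and Tnfaip3 had the same standing. Members and lists were chosen with earlier results of these data known. Alternatives were RLE scaling, no filter, edgeR's newer dispersion fit, DESeq2 1.42.0, a replicate block, only the groups compared, leaving out each library, and leaving out the 4 libraries high in Arg1. Same-numbered libraries deviated together across genes (r over 0.1 in every pair: 0.24 to 0.71 for treatments and vehicle in wild type, 0.11 to 0.28 for IL4 and corticosterone and vehicle in knockout), so block values are given where they change a call. No 2 libraries were identical.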

Additional observations from a re-analysis of the deposited data

How the results depend on the processing

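Of the alternatives to receptor results, 2410 kept their side of the threshold, 33 gained a call and 46 lost one. The sign turned in 72, for 36 of the 170 receptor log2 values, 0 of them called in the main analysis. Counts of receptors called that moved by over 1.5 times were these. For corticosterone in wild type the count was 2 without the filter and 2 to 3 when 1 library was left out, against 4. With only the groups compared it was 5 for IL4 in knockout, against 8, and 2 for knockout against wild type with IL4, against 4. Without the libraries high in Arg1 it was 1 for knockout against wild type with dexamethasone, against 2. With the replicate block it was 1 for each of the corticosterone and dexamethasone interactions, against 0 (Tlr8, -0.71 and -0.72), and 8 for IL4 against corticosterone in wild type, against 5. The cause was not tested.

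Knockout libraries of the same number deviated together with dexamethasone and corticosterone (r 0.26 to 0.31). They did not all do so with dexamethasone and vehicle (0.01 to 0.36), nor did same-numbered libraries of the 2 genotypes (-0.24 to 0.03). With the block there, Tlr8 with dexamethasone in knockout (0.45, adjusted p = 0.00246) and Tlr5 between genotypes with vehicle (-1.21, adjusted p = 0.0230) were called, and Tlr2 between genotypes with vehicle was not (-0.86, adjusted p = 0.05). The dexamethasone interaction above includes those knockout libraries. Block calls that changed for paired groups stand beside their results, and the block changed no receptor call beyond these.

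Calls over all genes moved more than those of the receptors. With the block they went from 866 to 1790 for corticosterone and from 1996 to 3225 for dexamethasone in wild type, and from 1762 to 2974 and 2684 to 4056 in knockout. With only the groups compared they went from 1996 to 1329 for dexamethasone in wild type, 3873 to 1745 for IL4 in knockout, and 2738 to 1641 and 1802 to 616 between genotypes with vehicle and IL4. Without the libraries high in Arg1 they went from 1762 to 941 and 2684 to 1789 for the glucocorticoids in knockout, and from 2738 to 1680 and 2512 to 1378 between genotypes with vehicle and dexamethasone. The lowest counts without 1 library were 497, 1327, 1809, 638, 1057 and 1540 for corticosterone and dexamethasone in wild type and for the genotypes with vehicle, IL4, corticosterone and dexamethasone. Interactions of 4, 3 and 27 calls gave 149, 110 and 214 with the block and 78, 80 and 81 by DESeq2, and dexamethasone against corticosterone went from 27 and 47 to 137 and 274 with the block and 57 and 165 by DESeq2. Depth limits Tlr5, with 0 to 13 counts in each IL4 library.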
